A study of Mus musculus with 6 samples.

Results

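The IFIT and OAS genes are antiviral effectors that cells switch on in answer to type I interferon, and 9 of them were followed here in healthy bone marrow stem and progenitor cells of mice with and without acute myeloid leukemia (AML). The members were taken by gene symbol (Ifit1, Ifit2, Ifit3, Ifit3b, Oas1a, Oas2, Oas3, Oasl1 and Oasl2), and all 9 were found among the 32285 genes of the matrices. IFIT proteins bind viral RNA, in the case of Ifit1 by a cap that lacks a host methyl mark, and hold it back from translation. Oas1a, Oas2 and Oas3 sense double-stranded RNA and make short oligoadenylates. Oasl1 and Oasl2 are OAS-like proteins, of which Oasl1 has no synthetase activity and represses translation of Irf7. In stem and progenitor cells, interferon-stimulated genes of this kind are known to be expressed at a basal level.

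Female C57BL/6J mice carrying the CD45.1 allele, aged 8 to 12 weeks and not conditioned, were injected either with PBS or with 1000000 cells of C1498, a murine AML line carrying CD45.2, so that AML here means a graft of 1 cell line. All were sacrificed at day 21. Host CD45.1+ cells that were Lin- cKit+ Sca1+ (LSK cells) were sorted, and their RNA was counted cell by cell in droplets in 3 PBS and 3 AML libraries. The labels do not say whether each library came from a separate mouse, so that p-values measure the spread between these libraries. The deposited cell table holds 16822 cells, with a cluster number from 0 to 8 for each. It also gives each cell a class (HSC, the stem cells, or the multipotent progenitors MPP-2, MPP-3 and MPP-4), assigned by module scores of published signatures. The sources used here do not say whether any member was in those signatures.

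Some libraries stood apart. The cell table holds 0 cells of AML 2, so that 3 PBS libraries were set against AML 1 and AML 3. AML 1 was the shallowest of these 5, with 693 cells and 1945659 UMIs (counted molecules), against 934 to 6838 cells and 10403685 to 32123508 UMIs in the others. Libraries also shared cell barcodes, with AML 2 holding 1223 (97.4%) of the 1256 barcodes of PBS 2. It also held 43.1% of those of AML 3 and 39.7% of those of PBS 3, and PBS 1 held 50.2% of those of PBS 2. Among cells in the table, 47 had more UMIs under the same barcode in another library. Leaving them out was tried over all LSK cells only, where no member was called with or without them. The 10 LSK markers were detected in every library, at a summed 1281 to 1470 CPM (UMIs of a gene scaled to a library total of 1000000) in PBS and 1151 to 1362 CPM in AML.

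The members lie in clusters of tandem genes. Per GENCODE M21 (GRCm38), the 4 Ifit genes span 99.32 kb on chr19:34550694-34650009, all on the plus strand. Oasl2 and Oasl1 lie within 40.98 kb on chr5:114896936-114937915 on the plus strand, and Oas2, Oas3 and Oas1a within 177.2 kb on chr5:120730333-120907521 on the minus strand. Ifit3 and Ifit3b are near copies, with 81.2% identity over their longest coding transcripts and a shared run of 329 bases. Their last 300 bases, which this 3′ chemistry mostly reads, were 45.5% identical with no shared run over 8 bases. Reads from the shared stretch cannot be assigned to either gene. Gm13822 overlaps Oasl1 on the other strand and was also counted.

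The promoters were searched for the core of the element through which interferon acts. After type I interferon binds its receptor, a complex holding Stat2 and Irf9 binds the interferon-stimulated response element, whose core was searched here on both strands as GAAA, any 2 bases and GAAA (on the other strand TTTC, any 2 bases and TTTC). RefSeq (GRCm38.p6) promoters from 250 bases before to 50 bases after the start were given for 8 of the 9 members, Oas2 being the one without an entry. The core was found in 1131 of 32851 promoters (3.44%), and in those of Ifit1, Ifit3, Ifit3b, Oas1a and Oas3. The first match lay 104, 156, 188, 20 and 75 bases before the start in that order. None was found in these windows for Ifit2, Oasl1 or Oasl2. The stretches around the matches are printed on the strand of the gene, 5′ to 3′, with the core in capitals, because they show the sequence that members of both families share.
Ifit1, chr19:34640760-34640838, plus strand: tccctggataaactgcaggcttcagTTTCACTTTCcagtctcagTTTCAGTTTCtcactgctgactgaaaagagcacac
Ifit3, chr19:34583348-34583441, plus strand: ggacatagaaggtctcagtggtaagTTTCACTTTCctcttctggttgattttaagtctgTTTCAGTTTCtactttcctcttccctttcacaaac
Ifit3b, chr19:34607744-34607837, plus strand: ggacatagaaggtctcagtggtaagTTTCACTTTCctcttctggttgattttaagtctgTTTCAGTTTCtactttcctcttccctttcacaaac
Oas1a, chr5:120907526-120907570, minus strand: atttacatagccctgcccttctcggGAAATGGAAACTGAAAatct
Oas3, chr5:120777700-120777759, minus strand: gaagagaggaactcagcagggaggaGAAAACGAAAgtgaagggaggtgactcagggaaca
Each of Ifit1, Ifit3, Ifit3b and Oas1a held 2 matches, which overlap in Oas1a. The Ifit3 and Ifit3b stretches are the same letter for letter, and the 250 bases before their starts aligned over 224 bases with 96.4% identity.

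The first comparison asked whether the members differed between all LSK cells of AML and PBS mice. Each of the 9 had a positive fitted log2 fold change, and none passed the threshold over all genes tested. The largest were those of Ifit3 and Oas2. Counts were summed per library and tested with edgeR, where 23 of 14364 genes (0.16%) had an adjusted p under 0.05 and 22 (0.153%) were called higher in AML. At an unadjusted p under 0.05 there were 4 members (Oas2, Ifit3, Ifit1 and Ifit3b), and 5.51% of all genes were higher in AML at that level. DESeq2 and limma-voom also called 0 members. The median log2 fold change was 0.60 over the members and -0.03 over all genes.

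Oas2, an oligoadenylate synthetase, rested on 151, 42 and 76 UMIs in PBS 1, 2 and 3, on 19 in AML 1 and on 278 in AML 3. Its level was 4.38, 4.11 and 3.61 CPM in PBS and 9.81 and 9.83 CPM in AML. Both AML libraries lay above all PBS libraries and were nearly equal to each other. The log2 fold change was 1.28 ± 0.26 (SE, adjusted p 0.0793), which did not pass.

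Ifit3, whose product forms complexes with other IFIT proteins, had 160, 61 and 96 UMIs in the PBS libraries, but 7 in AML 1 and 473 in AML 3. Its level was 4.64, 5.97 and 4.56 CPM in PBS, 3.61 CPM in AML 1 and 16.7 CPM in AML 3. AML 1 was the lowest library and AML 3 the highest, so that the groups overlapped. The log2 fold change was 1.29 ± 0.37 (adjusted p 0.239). With AML 1 left out it was called (adjusted p 0.0183), and with AML 3 left out it was -0.46 (adjusted p 0.671). Ifit3b showed the same order at a lower level, with 1.42, 2.05 and 1.23 CPM in PBS, 1.03 CPM in AML 1 and 4.0 CPM in AML 3 (adjusted p 0.421).

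Ifit1 stood at 11.2, 10.9 and 7.79 CPM in PBS and at 16.0 and 16.5 CPM in AML, with a log2 fold change of 0.72 ± 0.24 (adjusted p 0.321). Both AML libraries lay above PBS, as they also did for Ifit2 and Oasl1, which makes 4 of 9 members with Oas2, where 14.6% of all genes tested did so. In AML 1, 19 of the 31 UMIs of Ifit1 came from 3 cells of cluster 2, and on the plain total Ifit2 overlapped, at 8.74 CPM in AML 1 and 8.78 CPM in PBS 1. Ifit2 had a log2 fold change of 0.32 ± 0.25 and Oasl1 of 0.51 ± 0.26, with adjusted p of 0.639 and 0.510. The groups overlapped for Oas3 (0.60 ± 0.28), Oasl2 (0.16 ± 0.24) and Oas1a (0.04 ± 0.35), with adjusted p from 0.476 to 0.977. On the plain total Oas3 did not overlap, at 4.86 to 5.48 CPM in PBS and 5.65 and 9.13 CPM in AML. Oas1a was highest in PBS 2, at 15.7 CPM, and its 2 AML values of 12.9 and 9.27 CPM lay between the PBS values.

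**Figure D1:**
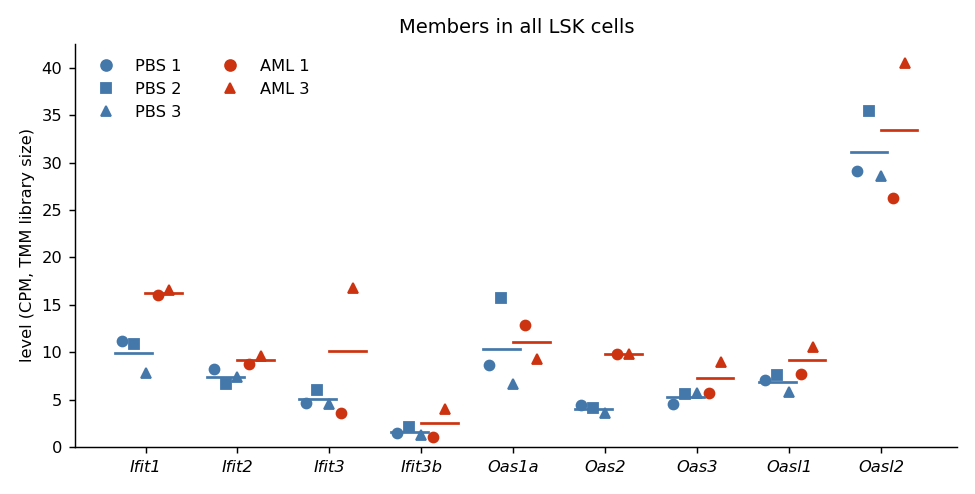
Level of each member in all LSK cells, in CPM of the TMM-normalized library size, with a point per library and a bar at the group mean (3 PBS libraries, 2 AML libraries). Oas2 is at 9.81 and 9.83 CPM in AML and at most 4.38 CPM in PBS, while the AML libraries part for Ifit3, at 3.61 and 16.7 CPM.

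With every detected gene kept, Oas2 (adjusted p 0.00512) and Ifit3 (0.00102) were called, where 392 of 21591 genes were. Both were also called with the class composition made equal across libraries (0.0402 and 0.0361), where 12 of 14421 genes were. Over 15 alternatives the adjusted p of Oas2 ranged from 0.00512 to 0.247 and its log2 fold change from 1.21 to 1.64. Monocyte and macrophage markers also differed between the groups, with the 11 genes summing to 151 to 176 CPM in PBS and to 270 and 280 CPM in AML, where C1qa, Cd14 and Fn1 were at 0 in AML 1. The 7 dendritic cell markers summed to 499 to 557 CPM in PBS and to 621 and 717 CPM in AML, and the 9 T and NK cell markers to 160 to 218 CPM and to 252 and 291 CPM. Here and below, the dendritic list includes Bst2, itself interferon-stimulated, and Flt3, which is also an LSK marker. In AML 1, over all LSK cells and in each class, its sum came only from Bst2, Flt3 and Tcf4. The part of these marker lists in the result was not tested.

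In the HSC class 4 of 9 members were called, all higher in AML. These were Ifit3, Oas2, Ifit1 and Oasl2, with log2 fold changes of 2.24, 1.95, 1.26 and 1.08. Of 10668 genes tested, 19 (0.178%) were called and 14 (0.131%) called higher. At an unadjusted p under 0.05, 8 members were higher in AML, and 2.02% of all genes. They include Ifit3b, which passed the filter for low counts only through the AML libraries. The median log2 fold change of the 9 members was 1.26, and that of all genes -0.03. Both AML libraries lay above all PBS libraries for 7 of 9 members, and for 11% of all genes. In AML 1, however, 1 UMI equals 16.3 CPM of the plain total, above every PBS value of Ifit2, Ifit3, Ifit3b, Oas2 and Oasl1. For these members any detected molecule put AML 1 above PBS. AML 1 entered with only 23 cells and 61292 UMIs, of which 25 were of members, whereas AML 3 had 542 cells and the PBS libraries 223 to 1401. More expressing cells and more RNA per cell cannot be told apart in such sums.

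Ifit3 had 38, 18 and 33 UMIs in the PBS libraries, 3 in AML 1 and 108 in AML 3. Its level was 7.63, 11.4 and 10.6 CPM in PBS and 40.6 and 45.5 CPM in AML. The groups did not overlap and the AML values were close to each other, although the 3 UMIs of AML 1 came from 1 cell. The log2 fold change was 2.24 ± 0.33 (SE, edgeR adjusted p 3.71e-08). It remained called without AML 1 (adjusted p 0.00151) and without each PBS library in turn (1.84e-07 to 0.00029), and was not called without AML 3 (0.620).

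Oas2 had 31, 10 and 22 UMIs in the PBS libraries, 3 in AML 1 and 57 in AML 3, or 6.23, 6.32 and 7.08 CPM against 40.6 and 24.0 CPM. The PBS libraries lay within 1 CPM of each other and far below both AML libraries. Its log2 fold change was 1.95 ± 0.41 (adjusted p 0.00271). It was not called without PBS 1 (0.0632), AML 1 (0.0655) or AML 3 (0.553).

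Ifit1 stood at 23.7, 21.5 and 15.4 CPM in PBS and at 54.1 and 48.0 CPM in AML, with no overlap (1.26 ± 0.30, adjusted p 0.0184). It was not called without PBS 1 (0.0666), PBS 3 (0.211), AML 1 (0.249) or AML 3 (0.672). Oasl2 stood at 51.2, 54.3 and 46.7 CPM in PBS and at 135 and 101 CPM in AML, again without overlap (1.08 ± 0.27, adjusted p 0.0430). The call was lost with any library left out, with adjusted p of 0.0666 to 0.534. AML 1 contributed 4 UMIs of Ifit1 and 10 UMIs of Oasl2. With a library left out in turn, the log2 fold changes stayed at 2.04 to 2.34 for Ifit3, 1.87 to 2.59 for Oas2, 1.09 to 1.44 for Ifit1 and 1.00 to 1.38 for Oasl2.

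Of the other members in the HSC class, Ifit3b came nearest to a call (2.35 ± 0.60, adjusted p 0.0537), with 1.81, 4.42 and 1.93 CPM in PBS and 13.5 and 12.2 CPM in AML. As its test was made possible by the AML libraries alone, this value is no support for a difference. Ifit2 (0.88 ± 0.40) and Oasl1 (0.96 ± 0.43) also had both AML libraries above PBS, with an adjusted p of 0.992 for each. AML 1 rested on 1 UMI of Ifit3b, 2 of Ifit2 and 1 of Oasl1, all under the floor of 3 UMIs (48.9 CPM of the plain total). Oas3 was at 6.43, 5.68 and 7.40 CPM in PBS and at 20.2 CPM in AML 3. In AML 1 it had 0 of 61292 UMIs, which allows a level of up to 48.9 CPM in plain units, above the level in AML 3. Oas1a, the remaining synthetase, had a log2 fold change of -0.10 ± 0.47 and overlapping groups.

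**Figure D2:**
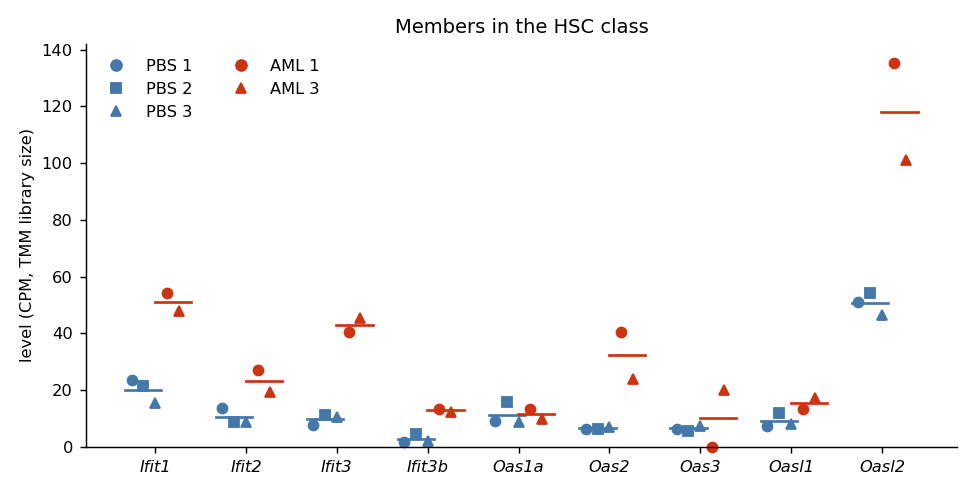
Level of each member in the HSC class, in CPM of the TMM-normalized library size, with a point per library and a bar at the group mean. For Ifit1, Ifit3, Oas2 and Oasl2 both AML libraries lie above all 3 PBS libraries, and for Oas3 the AML points are at 0 and 20.2 CPM. The 0 is 0 of 61292 UMIs in AML 1, which allows up to 48.9 CPM of the plain total.

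Beside the libraries kept, these calls depended on the tool, and of the other tools only DESeq2 was run by class. DESeq2 called 0 members and 0 genes in the HSC class, with 5 members and 86 genes at an unadjusted p under 0.05. Several marker lists also stood apart in this class. The dendritic cell markers summed to 335 to 393 CPM in PBS and 530 to 587 CPM in AML, the T and NK cell markers to 64.4 to 112 CPM and 114 to 164 CPM, and the LSK markers to 1730 to 1789 CPM and 2130 to 2398 CPM. In the other direction, the 8 erythroid markers summed to 176 to 2067 CPM in PBS and 48.9 to 103 CPM in AML. The monocyte and macrophage markers overlapped, at 154 to 233 CPM and 176 to 228 CPM. In AML 1, 4 of the 7 dendritic cell markers and 7 of the 9 T and NK cell markers were at 0. The part of these markers in the result was not tested.

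In the MPP classes fewer members were called. In MPP-4, 1 of 9 members was called, where 4 of 12305 genes (0.0325%) were called, all higher. At an unadjusted p under 0.05, 4 members were higher, and 3.47% of all genes. The called member was Ifit3, with 6.09, 9.86 and 5.45 CPM in PBS and 5.38 and 29.8 CPM in AML (1.84 ± 0.33, adjusted p 0.0293). AML 3 alone was high. AML 1 held 2 UMIs, under the floor of 3 UMIs (8.56 CPM of the plain total), and lay among the PBS libraries on the plain scale, at 5.71 CPM. The call was lost with DESeq2, and without PBS 1 (0.0624), PBS 3 (0.419) or AML 3 (-0.37, adjusted p 0.920). Ifit1 stood at 14.0, 16.3 and 11.9 CPM in PBS and at 59.2 and 25.1 CPM in AML (1.25 ± 0.31, adjusted p 0.167), and Oas2 at 6.09, 6.40 and 4.81 CPM and at 10.8 and 15 CPM (1.31 ± 0.32, adjusted p 0.167). For these 2 of 9 members the AML libraries lay above PBS, as they did for 13.2% of all genes, and without AML 3 Ifit1 was called (0.0414). The value of Ifit1 in AML 1 rested on 22 UMIs in 6 cells, of which 18 UMIs came from the 41 MPP-4 cells of cluster 2, and no more than 3 cells of AML 1 held Ifit1 in that cluster.

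In MPP-2, edgeR called 0 of the 8 members tested, where 5 of 12518 genes (0.0399%) were called, all higher, and DESeq2 also called 0. At an unadjusted p under 0.05, 4 members were higher with edgeR, against 4.42% of all genes. The AML libraries lay above PBS for 4 of 8, against 14.1% of all genes. Of these, Ifit3 had 2 UMIs in AML 1, under the floor of 3 UMIs (3.27 CPM), and overlapped on the plain total, at 2.18 CPM against 2.25 CPM in PBS 1. Oas2 was again among the furthest apart, at 2.03, 1.77 and 1.79 CPM in PBS and 8.48 and 5.44 CPM in AML (1.72 ± 0.42, adjusted p 0.192). Oas3 was at 3.34, 4.3 and 4.36 CPM and at 8.48 and 7.64 CPM (0.99 ± 0.34, adjusted p 0.483), with no overlap. In MPP-3, edgeR and DESeq2 called 0 of the 8 members tested, where edgeR called 5 of 10294 genes (0.0486%), 2 of them higher (0.0194%). With edgeR 0 members had an unadjusted p under 0.05, where 3.69% of all genes were higher at that level. The AML libraries lay above PBS for 2 of 8 members and for 12% of all genes. Their log2 fold changes ran from 0.05 (Ifit2) to 0.49 (Oas2). The 9 B and plasma cell markers summed to 79947 to 232048 CPM in the PBS libraries of MPP-3 and to 30250 and 45170 CPM in AML. The monocyte and macrophage markers also stood apart, at 218 to 239 CPM in PBS and 419 to 513 CPM in AML of MPP-3, and at 145 to 160 CPM and 212 to 224 CPM in MPP-2, where the T and NK cell markers were at 192 to 238 CPM and 249 to 291 CPM. So did the dendritic cell markers, at 375 to 429 CPM and 550 to 609 CPM in MPP-2, 311 to 455 CPM and 582 to 587 CPM in MPP-3, and 729 to 838 CPM and 884 to 1010 CPM in MPP-4. The part of these markers in the values was not tested.

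**Figure D3:**
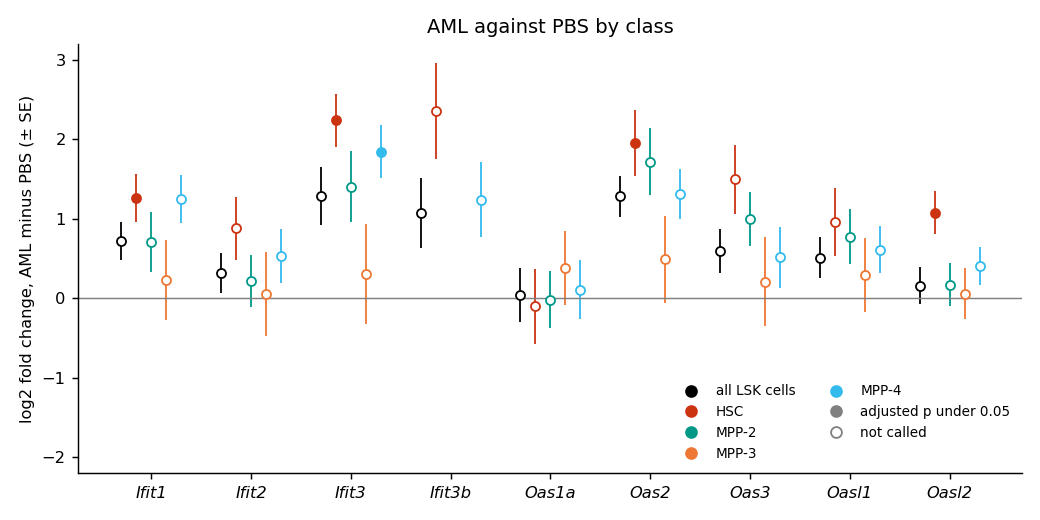
Log2 fold change of each member, AML minus PBS, with its SE, over all LSK cells and in each class (edgeR, 3 PBS and 2 AML libraries, filled where the adjusted p was under 0.05). The 5 filled points are Ifit1, Ifit3, Oas2 and Oasl2 in the HSC class and Ifit3 in MPP-4, and Oas1a lies between -0.10 and 0.38 throughout.

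A direct test asked whether the difference of AML from PBS was unequal across the 4 classes, with a term for each library. Of 12734 genes, 111 (0.872%) were called, and 0 of the 9 members. At an unadjusted p under 0.05 there were Oasl2, Ifit3 and Oas2, with adjusted p of 0.0686, 0.114 and 0.261. For each of them the fitted log2 effect was smaller in MPP-3 than in HSC, with differences of -0.96, -1.81 and -1.5. Without PBS 2, Ifit3 was called (0.0140), where 189 of 12629 genes were. With every detected gene kept, Ifit3 (0.0129) and Oasl2 (0.0293) were called, each with fitted effects smaller in all MPP classes than in HSC, where 506 of 21591 genes were called.

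Without leukemia the members were already unequal across classes. In PBS the summed level of the 9 members, in CPM of the plain total, was 118 ± 15.4 (SD, n = 3) in HSC, 104 ± 17.8 in MPP-4, 52.7 ± 6.91 in MPP-2 and 48.1 ± 19.0 in MPP-3. HSC and MPP-4 overlapped, as did MPP-2 and MPP-3, while every HSC and MPP-4 library lay above every MPP-2 and MPP-3 library. In MPP-3 the B and plasma cell markers stood at 79947, 232048 and 105558 CPM in PBS 1, 2 and 3, where the members summed to 68.4, 30.6 and 45.3 CPM. These markers were at 128 to 303 CPM in HSC, 180 to 249 CPM in MPP-2 and 363 to 454 CPM in MPP-4, and their part in the order of the classes was not tested. The class test within PBS called 7 of 9 members, where 60.7% of 11793 genes were called, so that a difference between classes was the common case. Library names were kept as a term in that test.

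Ifit1 differed most between the classes by adjusted p (8.74e-09). Its PBS level was 18.9 ± 5.11 CPM in HSC and 13.7 ± 2.51 CPM in MPP-4, against 4.2 ± 1.76 CPM in MPP-2 and 5.28 ± 1.29 CPM in MPP-3. The lowest HSC or MPP-4 library, at 10.8 CPM, was above the highest MPP-2 or MPP-3 library, at 6.64 CPM. Ifit3 followed the same order, with 9.07 ± 1.33, 6.92 ± 2.25, 3.17 ± 2.82 and 1.86 ± 0.396 CPM in HSC, MPP-4, MPP-3 and MPP-2 (adjusted p 2.43e-05). Its MPP-3 value includes PBS 2, which had 0 of 587539 UMIs there, allowing up to 5.11 CPM.

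Oasl2 stood at 47.1 ± 5.47 CPM in HSC and 38.2 ± 2.75 CPM in MPP-4, and at 21.3 ± 4.45 CPM in MPP-2 and 16.1 ± 6.54 CPM in MPP-3 (adjusted p 5.82e-08). Oas2 was lowest in MPP-2, at 1.84 ± 0.280 CPM, against 6.04 ± 0.297 CPM in HSC and 5.63 ± 1.10 CPM in MPP-4 (8.68e-05). Oasl1, Oas1a and Oas3 had their highest mean in MPP-4. Oasl1 stood there at 9.35 ± 1.91 CPM against 8.44 ± 2.08 CPM in HSC, values that overlap (class test 0.000154). Oas1a stood at 13.4 ± 7.38 CPM in MPP-4 and 10.4 ± 3.46 CPM in HSC, with an adjusted p of 0.0312. Its call was lost without any of the 3 PBS libraries (0.0524 to 0.264), and that of Ifit3b without PBS 1 (0.0954). Oas3 (0.0629) and Ifit2 (0.278) were not called within PBS. With all 5 libraries in the fit, 9 of 9 members were called, Oas3 with 0.00516 and Ifit2 with 0.0310, where 7927 of 11705 genes were called. These are counts of molecules by gene and not per length, so that levels were not ranked between genes.

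**Figure D4:**
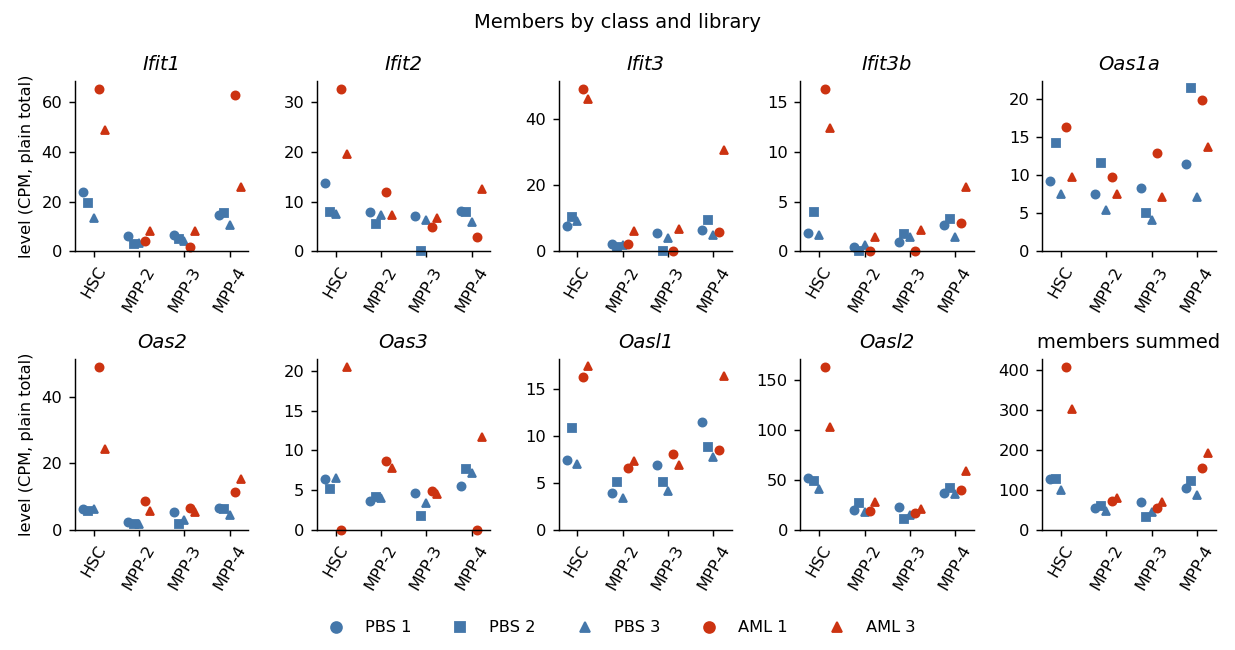
Level of each member and of their sum by class, in CPM of the plain total, with a point per library. In PBS the summed level is 100 to 127 CPM in HSC and 30.6 to 68.4 CPM in MPP-3, and in AML it reaches 408 CPM in the 23 HSC-class cells of AML 1.

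The members were also uneven over the 9 clusters of the cell table. In PBS the sum was highest in cluster 2, at 152 ± 29.4 CPM (SD, n = 3), followed by cluster 5 at 97.7 ± 8.35 CPM and cluster 0 at 83.3 ± 14.1 CPM. Clusters 5 and 0 overlapped, and all PBS values of cluster 2, from 122 to 181 CPM, lay above those of the other clusters. The sum was 56.7 ± 10.5 CPM in cluster 1, 40.4 ± 5.57 CPM in cluster 3 and 37.9 ± 7.01 CPM in cluster 4. In cluster 7, with 21 to 42 cells a library, it was 27.5 and 48.4 CPM in PBS 1 and PBS 3 and 28.4 CPM in AML 3. In cluster 8, with 23 to 52 cells, it was 76.4 and 45.8 CPM in PBS 1 and PBS 3 (9 and 5 UMIs) and 289 CPM in AML 3, where 5 of 52 cells held 60 of the 66 UMIs. Cluster 6, in which 172 of 177 cells were of the MPP-3 class, had 2.20 and 5.80 CPM in the 2 PBS libraries with at least 20 cells. Since the clusters were made from the genes of these same cells, these levels are a description.

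Ifit3 was among the members that were high in cluster 2. Its PBS level there was 15.1 to 23.1 CPM, against 1.22 to 2.43 CPM in cluster 0, and 247 of its PBS UMIs came from cluster 2, with 34 from cluster 0. In cluster 8 it had 25.5 CPM in PBS 1, from 3 UMIs, and 0 in PBS 3. Ifit3b stood at 6.38 ± 1.66 CPM in cluster 2 and at 0.582 ± 0.286 CPM in cluster 0. Most cells of cluster 2 (3000 of 3733, 80.4%) were of the MPP-4 class. The highest values, however, were in the few HSC-class cells of this cluster. In PBS 1 these were 62 cells with an Ifit3 level of 146 CPM, and in PBS 3 they were 44 cells with 169 CPM, while MPP-4 cells of the cluster stood at 12.7 and 7.65 CPM. In AML 3 the 23 HSC-class cells of cluster 2 had 656 CPM of Ifit3, and its MPP-4 cells 51.9 CPM.

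These cells supplied much of the Ifit3 signal of the HSC class. They gave 30 of 38 UMIs in PBS 1, 10 of 18 in PBS 2, 27 of 33 in PBS 3, 3 of 3 in AML 1 and 66 of 108 in AML 3. Oas2 came mostly from outside cluster 2, with 55 of 57 UMIs in AML 3 and 24 of 31 in PBS 1. Outside that cluster Ifit3 stood at 1.68, 4.73 and 1.77 CPM of the plain total in PBS and 18.7 CPM in AML 3, and Oas2 at 5.03, 4.73 and 5.90 CPM in PBS and 55.2 and 24.5 CPM in AML 1 and AML 3. With cluster 2 left out, an alternative chosen after seeing the data, 3 of the 8 members tested were still called in the HSC class, where 17 of 10587 genes were. These were Ifit3 (2.76, adjusted p 0.00054), Oas2 (2.18, adjusted p 0.00054) and Ifit1 (1.41, adjusted p 0.0229), while Oasl2 was not (1.05, adjusted p 0.0834). Ifit3 then had 0 UMIs in the 20 remaining cells of AML 1, where 1 UMI equals 18.4 CPM of the plain total. Its measured values overlapped between the groups, but this 0 does not show a low level in AML 1.

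Within clusters, AML was compared with PBS where each of the 5 libraries had at least 20 cells, which held for clusters 0 to 4. In cluster 0, 1 of 8 members was called, where 5 of 12286 genes (0.0407%) were called, all higher. Unadjusted, 6 members were higher at p under 0.05, and 4.65% of all genes. Oas2 stood there at 4.12, 3.46 and 5.23 CPM in PBS and at 15.1 and 16.9 CPM in AML (1.91 ± 0.32, adjusted p 0.0278). The AML libraries were alike and far above PBS, and the call held without AML 1 (0.0462) and was lost without any of the other 4 libraries (0.072 to 0.242). In cluster 2, 1 of 9 members was called, where 20 of 11530 genes (0.173%) were called higher. Unadjusted, 3 members were higher at p under 0.05, and 3.24% of all genes. Ifit3 stood there at 18.5, 24.3 and 16.7 CPM in PBS, 15.8 CPM in AML 1 and 58.6 CPM in AML 3 (1.28 ± 0.30, adjusted p 0.0387), with 5 UMIs in AML 1, so that only AML 3 was high. In CPM of the plain total AML 1 lay between PBS 3 and PBS 1, at 16.5 CPM. The monocyte and macrophage markers summed to 118 to 147 CPM in PBS and 185 to 218 CPM in AML of this cluster, and the T and NK cell markers to 148 to 213 CPM and 226 to 500 CPM. The erythroid markers were lower in AML, at 42.9 to 62.5 CPM in PBS and 3.31 to 34.4 CPM in AML. The part of these markers in the result was not tested. The call held without AML 1 (0.0042) and was lost without PBS 1 (0.262), PBS 2 (0.057), PBS 3 (0.466) or AML 3 (-0.32, adjusted p 0.858). In cluster 1 edgeR called 0 of 8 members, where 0.146% of genes were called higher, and 2 members and 4.45% of genes were higher at an unadjusted p under 0.05. In cluster 3 it called 0 of 5 (0.137% of genes called higher), and 1 member and 2.31% of genes were higher at an unadjusted p under 0.05. In cluster 4 it called 0 of 2 (0.232% of genes called higher), and 0 members and 2.57% of genes were higher at that level.

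**Figure D5:**
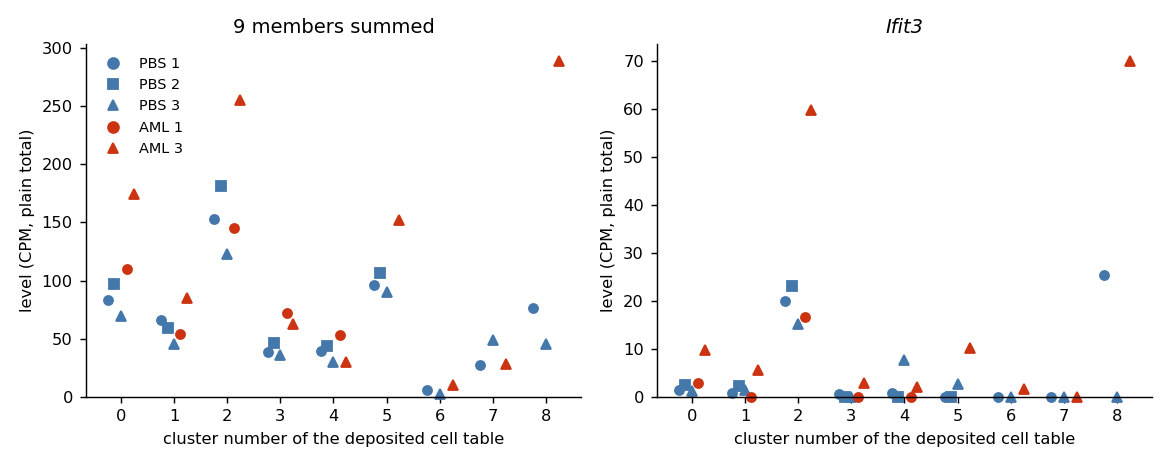
Summed level of the 9 members and level of Ifit3 by cluster, in CPM of the plain total, with a point for each library that had at least 20 cells in the cluster. Cluster 2 holds the highest PBS values of the sum, and AML 3 lies above all PBS libraries in clusters 0, 1, 2, 3, 5, 6 and 8. In cluster 6 its sum rests on 6 UMIs. The sum of AML 1 lies within the PBS range in cluster 1 (54.3 CPM) and cluster 2 (146 CPM), and above it in clusters 0, 3 and 4.

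Per cell, the members were sparse. At least 1 UMI of any member was found in 26.3%, 49.7% and 23.9% of the cells of PBS 1, 2 and 3 and in 16.5% and 41.5% of those of AML 1 and AML 3, at median depths of 4015, 9586, 4388, 2393 and 5910 UMIs. With each cell thinned to 2000 UMIs, which left out 125 shallower cells of PBS 1 and 80 of PBS 3, they were 15.3%, 15.6% and 12.6% in PBS and 11.4% and 20.6% in AML. In the HSC class the thinned shares were 18.8%, 17.5% and 16.3% in PBS, 39.1% in AML 1 (exact Clopper-Pearson 95% interval 19.7% to 61.5%, 23 cells) and 32.5% in AML 3 (28.5% to 36.6%). Both AML values lay above the PBS values in that class, although the interval of AML 1 overlaps those of PBS 1 (16.7% to 20.9%) and PBS 2 (12.7% to 23.1%), and the difference was not tested. The unthinned shares were 27.3%, 51.1% and 25.2% in PBS and 52.2% and 48.7% in AML. In cluster 6, the cells with the fewest member UMIs, the thinned share was 3.64% of 55 cells in PBS 1, 0 of 40 in PBS 3 (which allows up to 8.81%) and 1.69% of 59 in AML 3, at median depths of 7943, 10823.5 and 8606 UMIs. Intervals cover counting error only.

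A small group of cells held several members at once. Cells with UMIs of 3 or more of the 9 numbered 98, 54 and 47 in PBS 1, 2 and 3, and 6 and 223 in AML 1 and AML 3, which is 1.43%, 5.78%, 1.07%, 0.866% and 5.63% of the cells. PBS 2, the deepest library per cell, was as high as AML 3. Of these cells, 69, 26 and 34 were in cluster 2 in PBS, as were 3 and 95 in AML. They carried 24.7% of all member UMIs in AML 1 and 43.3% in AML 3, against 17.5% to 33.6% in PBS, and 1 cell of AML 3 held 36 UMIs. These counts are not thinned, and the libraries differ in depth. The top 1% of cells by member UMIs carried 13.5% to 26.4% of them over the 5 libraries.

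By the authors' cell cycle phase, the members were highest in G1. Their sum was 122, 128 and 96.7 CPM in G1 cells of PBS and 228 and 222 CPM in those of AML. In S phase it was 56.6, 48.0 and 34.2 CPM in PBS and 55.8 and 79.3 CPM in AML, and in G2M it was 59.4, 82.8 and 55.0 CPM and 77.1 and 80.4 CPM. G1 was above S and G2M in each of the 5 libraries. The sums of the AML libraries were close in G1, but single members were not. Ifit1 stood at 79.7 and 33.7 CPM and Ifit3 at 14.5 and 37.2 CPM in AML 1 and AML 3. The G1 sum of AML 1 rested on 63 UMIs, of which 22 were of Ifit1. AML 1 had 102 of its 693 cells in G1, and AML 3 had 1940 of 3959.

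The rest of the pathway was read from fixed lists. Over all LSK cells, 0 of 4 tested relatives of the families, 0 of 12 genes of interferon signalling and 0 of 25 other interferon-stimulated genes were called by edgeR. With an unadjusted p under 0.05 there were 0, 0 and 9 in that order. Over all genes 0.16% were called, and 5.51% were higher at that unadjusted level. Isg15, a ubiquitin-like modifier, came nearest, at 119 ± 17.6 CPM in PBS and 265 ± 4.04 CPM in AML (1.16 ± 0.24, adjusted p 0.0803). Stat2 had 0.45 ± 0.23 (0.506) and Irf9 -0.02 ± 0.23 (0.982).

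In the HSC class, 4 of 25 other interferon-stimulated genes and 1 of 12 signalling genes were called, all higher, and 0 of the 2 relatives tested. The 4 were Rnf213 (1.25 ± 0.27, adjusted p 0.00278), Ifi27l2a (1.22 ± 0.27, 0.00827), Isg15 (1.12 ± 0.27, 0.0236) and Ifi44 (1.05 ± 0.27, 0.0468), named after their values were seen except for Isg15. Over all genes 0.178% were called and 0.131% called higher in this class. For each of them both AML libraries lay above PBS, with Rnf213 at 41.2, 37.9 and 56.0 CPM in PBS and 108 and 108 CPM in AML. The signalling gene was Irf7, also named after its values were seen (1.22 ± 0.26, adjusted p 0.00271), at 91.4, 81.5 and 65.0 CPM in PBS, 67.6 CPM in AML 1 and 222 CPM in AML 3, so that only AML 3 was high. The median log2 fold change of the 25 genes was 0.64, that of the signalling list 0.18 and that of the members 1.26.

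The genes whose pattern was most like that of the members were sought over the 20 sums per library and class. Among 5754 genes with a mean of at least 20 CPM, Pearson's r of log2(CPM + 1) with the summed members was highest for Ifi44 (0.942), Stk24 (0.940), Ip6k1 (0.940), Gm4951 (0.935) and Xaf1 (0.929). The 20 points share libraries, classes and depth. Among the members themselves r ranged from -0.186 to 0.899 over 36 pairs, with a median of 0.647.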

How the data were processed

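The authors deposited raw UMI counts for each gene in each barcode, and per the labels made the libraries with 10x Chromium GEM V3 chemistry. The submitters' processing notes name Cell Ranger 7.0.1, Seurat 4.3.0, R 4.2.2, GRCm38 and mm10. The deposited cell table also gives the percent of mitochondrial UMIs, a phase, a class and a cluster per cell, and 18 of its columns were not used here. The sources used here do not give how cells were filtered or doublets handled, and no doublet caller was run. The 9 members, the gene lists and the tests were chosen with earlier results of these data known.

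UMI counts of table cells were summed per library, and per library and class or cluster with at least 20 cells. Sums were tested with edgeR 4.0.16 (R 4.3.3) using TMM, filterByExpr and its quasi-likelihood F test, with Benjamini-Hochberg adjusted p over all genes tested, at 0.05. The SE beside an edgeR log2 fold change is its absolute value divided by the square root of F, and so is approximate. Levels beside a fold change are CPM of the TMM library size, and levels across classes, clusters and phases CPM of the plain total. Class tests had a term per library. In the MPP classes and the clusters only some members are named singly, and the others tested enter the counts. The naming rule took all 9 members, Isg15, Stat2, Irf9 and the 5 genes most like the members. A further gene that this rule names beside the members is not reported here. DESeq2 1.42.0, limma-voom 3.58.1, other filters, cell sets and left-out libraries were alternatives. AML 2 entered only the own filter (1000 or more genes seen in a barcode, no more than 10% of its UMIs mitochondrial) and the barcodes outside the table.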

Additional observations from a re-analysis of the deposited data

Results flagged for a closer look

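AML 2, of which the cell table holds 0 cells, showed all 9 members above the level of the PBS barcodes that were also left out of the table. Its 17055 barcodes had a median of 320 UMIs. They include 97.4% of the barcodes of PBS 2, 43.1% of those of AML 3 and 39.7% of those of PBS 3. The labels do not say whether this matrix holds AML 2 alone. Oasl2 stood at 65.7 CPM of the plain total (466 UMIs), where the PBS libraries had 26.4 to 27.8 CPM. Oas2 stood at 30.2 CPM (214 UMIs) against at most 4.40 CPM in PBS, Oas3 at 24.1 CPM (171 UMIs) against 4.95 CPM, and Oasl1 at 20.9 CPM (148 UMIs) against 7.24 CPM. The other members were nearer to PBS, with Ifit1 and Oas1a at 15.1 CPM each, Ifit2 at 9.87 CPM, Ifit3 at 5.64 CPM and Ifit3b at 1.13 CPM, where the highest PBS values were 12.9, 13.7, 7.04, 3.81 and 0.879 CPM.

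The signal of AML 2 was uneven over its barcodes. The 6900 barcodes that occur in another library too had 76.7 CPM of the members summed, close to the 66.8 to 75.2 CPM of the PBS barcodes outside the table. The 10155 barcodes found in AML 2 only had 251 CPM, and 45.5 CPM of Oas2 (205 of 214 UMIs). Barcodes of AML 1 and AML 3 outside the table had 107 and 127 CPM. The 10 LSK markers summed to 1336 to 1436 CPM in these PBS barcodes and 1407 to 1629 CPM in AML, and the 9 B and plasma cell markers to 183 to 1018 CPM and 846 to 6499 CPM. The 7 dendritic cell markers stood apart, at 421 to 477 CPM in PBS and 601 to 675 CPM in AML. No test was made on these barcodes, and the part of these markers in the result was not tested.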

How the results depend on the processing

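With an AML library left out, the lone AML sample is taken to vary as PBS does. Among the members' values recomputed with all libraries, 207 kept their direction and side of the threshold, 10 passed anew, 11 no longer passed and 8 turned sign. The values were less stable with a library left out in turn, where 25 turned sign. The count of members called over all LSK cells was 0, and 2 with no filter or with equal class composition, and 0 to 1 with a library left out. In HSC it was 4, then 0 with DESeq2, 3 without cluster 2, and 0 to 4 with a library left out. In MPP-2 it was 1 with no filter, and in MPP-4 0 with DESeq2, 3 with no filter, and 0 to 1 with a library left out. In clusters 0 and 2 it was 0 to 1 with a library left out. For the difference between classes it was 2 with no filter and 0 to 1 with a library left out, and for the classes within PBS 5 to 6. Genes called over all LSK cells numbered 79 with DESeq2, 392 with no filter, 75 with the own filter, 9 with thinned cells, 12 with equal composition, 12 without clusters 4, 6, 7 and 8, and 2 to 419 with a library left out. Deviations of same-numbered libraries from their group means had r of -0.0574 and -0.0547 over genes (2 pairs). With only 2 AML libraries their deviations mirror each other, so that these r cannot show whether libraries were paired. With the replicate number as a block, members called were 2 in HSC, 2 in MPP-4 and 0 in clusters 0 and 2, and 91 genes were called over all LSK cells.

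Some log2 fold changes turned sign. Under the block Oas1a was 0.19 in HSC and 0.37 in MPP-2, and in MPP-3 Ifit2 was -0.21 and Ifit3 -0.14. Scaled by library size only, Oas1a was 0.0334 in HSC and 0.0324 in MPP-2. Over all LSK cells it was -0.16 with thinned cells and -0.00569 without clusters 4, 6, 7 and 8. With a library left out, values over all LSK cells ran from -0.23 to 0.40 for Oasl2, -0.18 to 0.46 for Oas1a, -0.46 to 1.76 for Ifit3 and -0.56 to 1.41 for Ifit3b. In HSC they ran from -0.24 to 0.31 for Oas1a and, with 0 UMIs in AML 1, from -7.01 to 1.61 for Oas3. In MPP-2 they ran from -0.24 to 0.36 for Oasl2, -0.20 to 0.29 for Oas1a and -0.0380 to 1.07 for Ifit1. In MPP-3 they ran from -0.21 to 0.24 for Oasl2, -0.30 to 0.26 for Ifit2 and -1.78 to 0.52 for Ifit1. In MPP-4 they ran from -0.0764 to 0.56 for Oasl2, -0.28 to 0.74 for Oasl1, -8.27 to 0.73 for Oas3 (again with 0 UMIs in AML 1, so that the lowest value is no bound), -0.17 to 0.57 for Oas1a, -1.49 to 0.70 for Ifit2 and, for the called Ifit3, -0.37 to 2.12. In cluster 2 the called Ifit3 ran from -0.32 to 1.59. The cause was not tested.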
